A study of Mus musculus with 16 samples.

Results

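The 9 genes of the MYC and MAX network (Myc, Max, Mxd1, Mxd3, Mxd4, Mxi1, Mnt, Mlx and Mga) were taken by symbol from the GENCODE annotation of GRCm38 (mm10), which names 55450 genes. Peaks of open chromatin from 8 ATAC-seq libraries were joined into regions wherever they overlapped or touched. A region that touched the window between 1000 bp before and 100 bp after an annotated start site of a network gene was taken as its promoter region, and every other region in the gene or within 10 kb of it was kept apart. The network genes held 17 of the 16566 regions of the series, 9 of them promoter regions, 1 per gene, and 8 of them other regions.

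ATAC-seq reads out open chromatin through the insertion of adapters by the Tn5 transposase, and was performed on splenic B cells of C57BL/6 mice carrying CD23-Cre (CD23Cre +/-), which deletes floxed alleles in mature B cells. Smarca4, which encodes the chromatin remodeler Brg1, had 1 floxed allele in the mice of 4 libraries (Brg1 fl/+) and 2 in those of the other 4 (Brg1 fl/fl), so the controls also carried the Cre and had a floxed allele. Cells were activated in culture with LPS at 10 µg/mL and IL-4 at 20 ng/mL for 72 hours by the sample labels, or for 96 hours (4 days) by the design text of the series and the methods of the study, and 50000 cells were used per library. The mice of the study were 7 to 14 weeks old, and the number of mice behind the 4 libraries of a genotype is not given in the sources used here.

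MYC is a basic helix-loop-helix leucine zipper protein that binds DNA as a dimer with MAX, at the E-box and near the start sites of genes for growth, ribosome production and the cell cycle. MXD1, MXD3, MXD4, MXI1, MNT and MGA also pair with MAX, and these dimers repress at the same sites, largely through SIN3 and histone deacetylases or, for MGA, a Polycomb complex. MLX is the partner of a parallel set of proteins, the MONDO factors, and also dimerizes with some MXD proteins and MNT. In B cells MYC is induced by mitogens and sets how much a cell grows and divides.

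To show what lay under these peaks, the reference sequence (GRCm38.p6) around the median summit is given for the promoters with the E-box CACGTG, for the Max promoter, whose summit height was called different between the genotypes, and for a region in the first intron of Mnt that was called different too. Each is written on the strand of its gene, and capitals mark the E-box, the GC box and the CCAAT box, read on either strand and spelled out with their counts further on. Max promoter lay at chr12:76962285-76962435 (minus strand), Mxd3 promoter at chr13:55329931-55330081 (minus strand) and Mxd4 promoter at chr5:34187853-34188003 (minus strand). Mnt promoter lay at chr11:74830681-74830831, Mnt first intron at chr11:74832165-74832315 and Mlx promoter, stopped before its first GENCODE exon, at chr11:101087212-101087276, all on the plus strand. The median summit of Mlx, at 101087287, lay past the end of the stretch shown, which gives only the sequence before it.
Max promoter: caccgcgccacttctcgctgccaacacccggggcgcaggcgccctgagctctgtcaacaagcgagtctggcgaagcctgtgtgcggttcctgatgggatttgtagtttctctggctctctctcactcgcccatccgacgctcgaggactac
Mxd3 promoter: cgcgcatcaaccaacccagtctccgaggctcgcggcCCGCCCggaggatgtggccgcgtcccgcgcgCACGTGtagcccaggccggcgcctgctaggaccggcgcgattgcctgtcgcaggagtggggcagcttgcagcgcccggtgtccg
Mxd4 promoter: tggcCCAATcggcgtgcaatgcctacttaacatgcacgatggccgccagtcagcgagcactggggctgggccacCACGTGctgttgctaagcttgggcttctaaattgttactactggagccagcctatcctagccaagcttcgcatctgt
Mnt promoter: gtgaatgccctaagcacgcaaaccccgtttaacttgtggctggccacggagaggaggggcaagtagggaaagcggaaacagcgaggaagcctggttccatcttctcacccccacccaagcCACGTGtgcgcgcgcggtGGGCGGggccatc
Mnt first intron: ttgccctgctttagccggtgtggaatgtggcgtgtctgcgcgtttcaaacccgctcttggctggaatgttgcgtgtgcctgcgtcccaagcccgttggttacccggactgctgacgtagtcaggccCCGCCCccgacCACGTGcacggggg
Mlx promoter: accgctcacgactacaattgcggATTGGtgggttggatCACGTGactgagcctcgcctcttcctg

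The E-box CACGTG, the sequence that MYC and MAX dimers bind, lay within 100 bp of the median summit at 4 of the 9 network promoters, those of Mxd3, Mxd4, Mnt and Mlx. Over all 10324 promoter regions on assembled chromosomes the share was 8.72%. The centre of the E-box was 1.5 bp from the summit at Mxd4, 5.5 bp at Mxd3, 34.5 bp at Mlx and 47.5 bp at Mnt, and in the first intron of Mnt it was 64.5 bp away. Away from promoters 4.49% of 6188 regions held CACGTG in the same window. No match lay within 100 bp of the summit at the promoters of Myc, Max, Mxd1, Mxi1 and Mga. GGGCGG was found at 5 of the 9 promoters (66.7% of all promoter regions), CCAAT at 3 (32.0%) and the STAT6 site at 1, that of Mga (2.32%). The ETS letters CCGGAAG (17.0%), the CRE TGACGTCA (3.45%), the E2F letters TTTCCCGC or TTTGGCGC (2.33%), the AP-1 letters TGANTCA (2.48%) and the NF-kB site (0.397%) were at none. The GC content of the 201 bp windows ran from 55.2% at Mxd4 to 79.6% at Mxi1 with a median of 64.7%, beside a median of 66.7% over all promoter regions. These matches describe the letters of the reference, and binding was not measured.

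All 9 network genes had a promoter peak in at least 1 library of each genotype, and 7 of the 9 (Max, Mxd1, Mxd3, Mxd4, Mxi1, Mnt and Mga) had it in all 8 libraries. Of all 10326 promoter regions 41.1% were listed in all 8 libraries, and of all 21924 protein-coding genes 22.2% had a promoter peak in all 8. The exceptions were Myc, the activator, and Mlx. The 54 annotated start sites of the network genes include many of short transcripts within the genes, and 32 of them had a promoter peak.

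**Figure D1:**
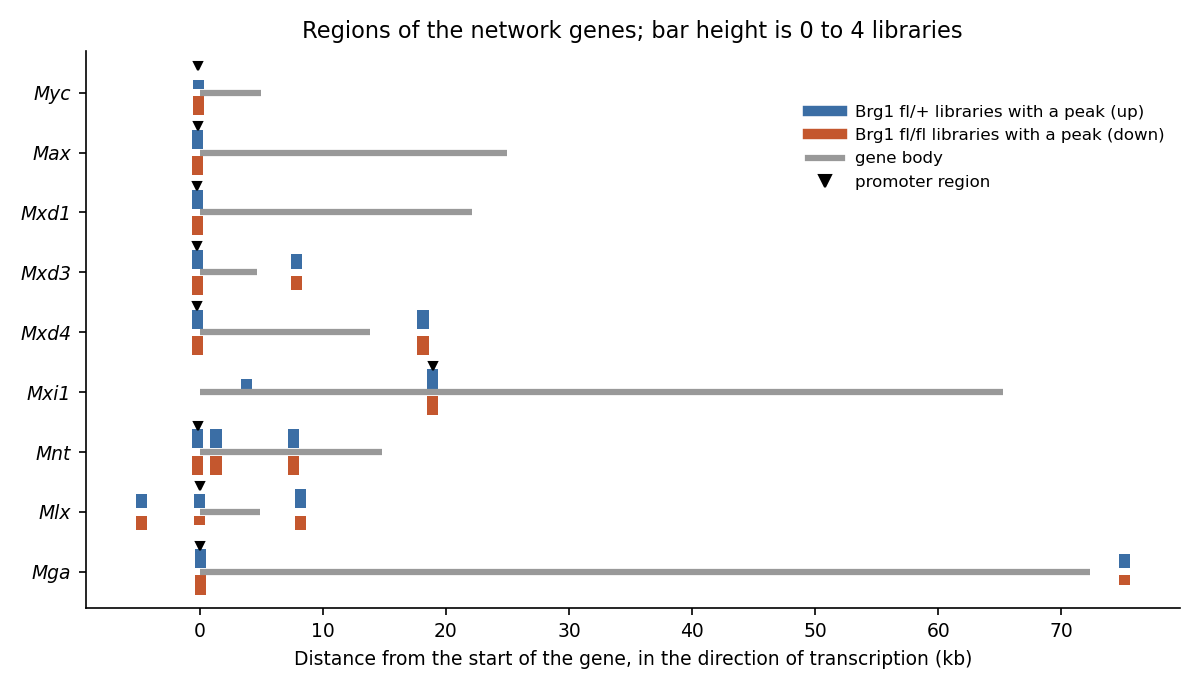
Distance of each region's median summit from the start of its gene (kb, in the direction of transcription) for the 9 network genes; blue bars pointing up give the Brg1 fl/+ libraries with a peak (0 to 4), orange bars pointing down the Brg1 fl/fl libraries, and triangles mark promoter regions. The promoter region lies at the start of each gene except Mxi1, where it lies 18944 bp inside the annotated gene.

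Most promoter summits lay just before the start site. The median summit was 125 bp upstream of the nearest start site at Myc, 159 bp at Max, 164 bp at Mnt, 183 bp at Mxd3, 197 bp at Mxd1 and 208 bp at Mxd4. At Mlx (chr11:101087147-101087631) and Mga (chr2:119896864-119897635) the summit lay 3 bp and 20 bp from the nearest start site, in the 5′ UTR of the gene by the annotation. Mxi1, whose product MXI1 represses with MAX, differed in that its promoter peak (chr19:53329260-53329812) was not at the start of the longest transcript. It sat 18944 bp downstream of it, 1 bp from an internal start site, and the 2 coding start sites upstream, at 53310518 and 53313066, had no peak in any library. Between these and the peak lay an intronic region described with the other regions.

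The other 8 regions were shared unequally. Myc, Max and Mxd1 had none within 10 kb, and the nearest region beyond the Myc gene was 53599 bp away, in 1 library. 5 of the 8 were promoter regions of neighbours: Prelid1 and Rab24 beside Mxd3, Haus3 and Poln beside Mxd4, Coasy and Psmc3ip beside Mlx, and Mapkbp1 beside Mga. The remaining 3 were intronic, 1 in Mxi1 and 2 in Mnt, and both of Mnt were found in all 8 libraries, as were 5.56% of the 6240 regions away from promoters. In fewer Brg1 fl/fl than control libraries were 63.3% of these 6240 regions, and in more of them 25.5%. Whether any of them acts on a network gene was not measured.

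Where libraries stood apart touches each comparison that follows. The 4 Brg1 fl/+ lists held 6372 to 14614 peaks and the 4 Brg1 fl/fl lists 6271 to 9216. The number of fragments at a summit was recovered from the deposited fold and −log10 p. The median summit of the 4593 regions found in all 8 libraries (shared regions) stood 53.4 ± 9.23-fold over the lowest background of its own library in Brg1 fl/+ (mean ± SD, n = 4, from 42.5 to 62.0) and 28.8 ± 1.10-fold in Brg1 fl/fl (n = 4, from 28.1 to 30.4; exact permutation test, two-sided p = 0.0286, the smallest that 4 against 4 libraries allow). The groups did not overlap. Differences below are therefore given relative to the median shared region of a library, and against the library's background where this changes the direction; whether a lower summit means fewer cells with an open site or less opening per cell cannot be told apart. Brg1 fl/+ replicates 1 and 2, and likewise 3 and 4, differed little more or less than by sampling noise over 4244 shared promoter regions (variance ratio of 1.03 and 0.916, where 1 is sampling noise), as did Brg1 fl/fl replicates 1, 3 and 4 (from 0.86 to 0.90), while the other pairs within a genotype ran from 1.15 to 2.38. Each library was counted as labelled, the p-values measure the spread between libraries, which may be technical, and calls are also given with these libraries averaged. The names of the deposited lists give libraries 1 and 2 of a genotype one number and libraries 3 and 4 another, whose meaning is not stated, and calls are also given with the libraries averaged in these pairs, 2 against 2. The Smarca4 promoter had a peak in all 8 libraries, from 12.5- to 16.0-fold over the local background, and since a promoter peak does not report the floxed part, it is no check of the genotype. Among the B cell marker genes, Ms4a1, Pax5 and Cd74 had a promoter peak in all 8 libraries, Cd79a in 1, and Cd79b, Cd22 and Blk in none. None of 16 markers of T, myeloid and erythroid cells had a promoter peak in any library.

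Myc, the activator of the network, had the lowest median fold of the 9 promoters over the libraries with a peak (4.92, beside 5.97 at Mlx), while within Brg1 fl/fl the median was lower at Mlx (4.48) than at Myc (5.74). Its promoter region (chr15:61985036-61985621) held 29 and 15 summit fragments in Brg1 fl/+ replicates 1 and 2 and no listed peak in replicates 3 and 4. In Brg1 fl/fl replicates 1 to 4 the summit fragments were 29, 12, 25 and 14. Of all promoter regions 11.3% were in more Brg1 fl/fl than control libraries, and 37.4% in fewer. At Myc all 4 Brg1 fl/fl lists and 2 of the 4 Brg1 fl/+ lists held a promoter peak. This exact pattern was seen at 1.02% of all promoter regions. The difference was not significant (Fisher's exact test, two-sided p = 0.429, adjusted p = 1), and no region of the series passed this test after adjustment (0.0% of 16566, and 0.573% at an unadjusted p below 0.05), in which 4 libraries against none give 0.0286 at best. The 2 lists without the peak were the shortest of the controls, with 6372 and 7632 peaks. The list of Brg1 fl/fl replicate 2, with 6271 peaks, held it at a −log10 q of 4.54. The count with each list shortened to the same number of peaks is given in the next paragraph, and no test of the part of list length was made.

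The deposited fold over the local background at Myc was 4.87 and 4.62 in the 2 Brg1 fl/+ libraries and 6.51, 4.98, 6.69 and 4.07 in Brg1 fl/fl, so the groups overlapped. Relative to the background of the whole library, the summit stood at 22.3- and 18.6-fold in these 2 Brg1 fl/+ libraries. In Brg1 fl/fl it stood lower, at 17.3-, 15.3-, 17.1- and 10.1-fold. The median shared region was lower on this scale too, at a mean of 53.4-fold in Brg1 fl/+ and 28.8-fold in Brg1 fl/fl. Scaled in this way, limma called 4232 of the 4593 shared regions lower in Brg1 fl/fl. The median shared region held 78 and 50 fragments in these 2 controls, where Myc held 29 and 15. It held 47, 22, 42 and 42 in Brg1 fl/fl, where Myc held 29, 12, 25 and 14. Brg1 fl/+ replicates 3 and 4, without a listed peak, give no value at Myc on any of these measures. The controls are therefore represented only by libraries that passed peak calling. Ranked by q, the Myc peak stood below the middle of each list that held it, between the top 56.6% and the top 92.7%. With a −log10 q of at least 5 required, 2 libraries of each genotype held the peak, and with at least 10 required, 1 Brg1 fl/+ and 2 Brg1 fl/fl libraries did. With each list shortened to its best peaks, as many as the shortest list holds, the peak was in 0 Brg1 fl/+ and 3 Brg1 fl/fl libraries. The number of libraries with a Myc promoter peak therefore depended on the threshold, and Myc could not enter the comparison of summit heights, which took regions found in all 8 libraries.

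**Figure D2:**
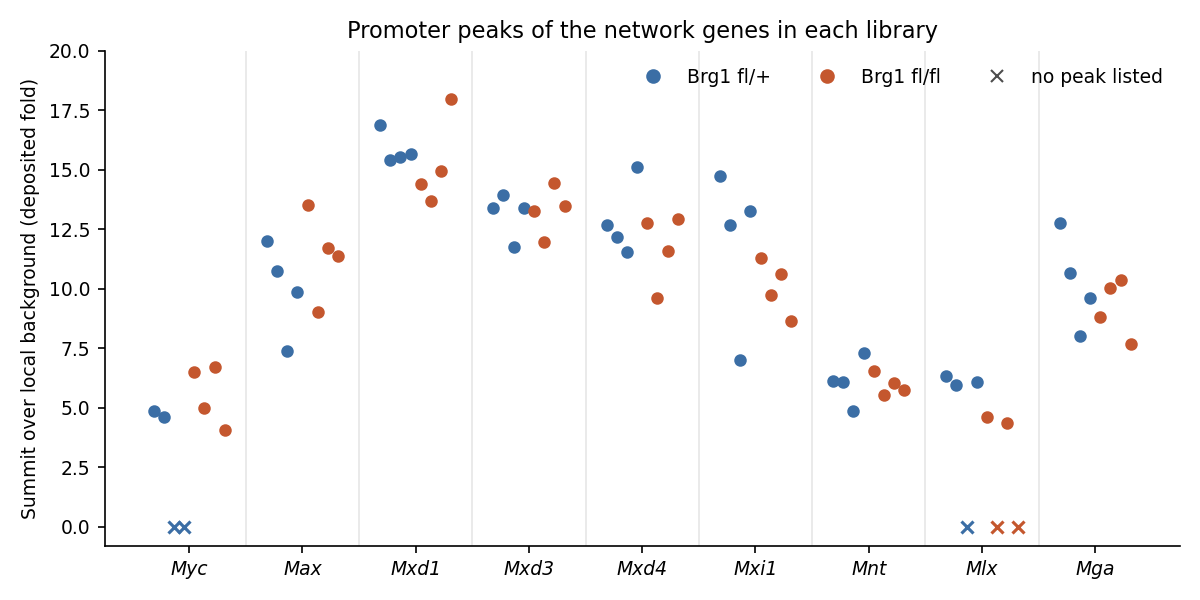
Deposited fold of the promoter summit over the local background (linear axis) for each network gene, with 1 point per library, Brg1 fl/+ in blue and Brg1 fl/fl in orange, replicates 1 to 4 from left to right; a cross at 0 marks a library whose list holds no peak. Myc and Mlx are the genes with crosses, and Mxd1 has the highest median fold at 15.5. The genotypes overlap at each gene but Mlx, where only 3 Brg1 fl/+ and 2 Brg1 fl/fl libraries have a value.

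Max, which encodes the shared partner of the network, had a promoter peak in all 8 libraries (chr12:76962020-76962656). Its summit fragments were 60, 36, 16 and 26 in Brg1 fl/+ replicates 1 to 4 and 54, 21, 42 and 40 in Brg1 fl/fl. Since the median shared region held 78, 50, 23 and 36 fragments in the former and 47, 22, 42 and 42 in the latter, Max lay below the median in every control and near it in the mutants. On the log2(fragments + 1) scale, relative to that median, the values were −0.37, −0.46, −0.50 and −0.45 in Brg1 fl/+ and 0.20, −0.06, 0 and −0.07 in Brg1 fl/fl. The genotypes did not overlap. The Max promoter was called higher in Brg1 fl/fl relative to the median shared region (log2 difference 0.46, SE 0.15, 1.38-fold, limma, adjusted p = 0.035), a call made for 6.88% of 4246 shared promoter regions in this direction and 3.56% in the other. The difference stayed between 0.40 and 0.49 with each library left out, but the call was lost: leaving out any library but Brg1 fl/fl replicate 2 gave an adjusted p from 0.054 to 0.13, averaging the libraries in pairs gave 0.075, and averaging those alike within sampling noise gave 0.21, the highest over all alternatives but the scaling by library background (lowest 0.032).

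Mxd1, which represses with MAX in cells that leave the cell cycle, had the strongest promoter peak of the network (chr6:86668998-86669690). Its summit fragments were 181, 106, 63 and 91 in Brg1 fl/+ and 101, 56, 107 and 120 in Brg1 fl/fl, and it ranked within the top 4.37% of every list by q. Relative to the median shared region the log2 values were 1.2, 1.07, 1.42 and 1.31 in Brg1 fl/+ and 1.09, 1.31, 1.33 and 1.49 in Brg1 fl/fl. The groups overlapped, and the difference of 0.05 (95% confidence interval from −0.17 to 0.28; adjusted p = 0.81) was not called.

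Mxd3, whose product is found mainly in cycling cells, had the largest difference in summit height relative to the median shared region among the 7 promoters compared (chr13:55329752-55330392). Its summit fragments were 78, 55, 26 and 40 in Brg1 fl/+ and 73, 38, 75 and 60 in Brg1 fl/fl. Relative to the median shared region the log2 values were 0, 0.13, 0.17 and 0.15 in Brg1 fl/+ and 0.62, 0.76, 0.82 and 0.50 in Brg1 fl/fl. Every Brg1 fl/fl library was above every control. The difference was 0.56 (SE 0.13, 1.48-fold, limma, adjusted p = 0.0027), it remained called with each library left out in turn (adjusted p from 0.0022 to 0.017), with the libraries averaged in pairs (0.0075) and with those alike within sampling noise averaged (0.037). It was not called on the deposited fold, where the Mxd3 promoter differed by 0.22 (adjusted p = 0.19), less than the Max promoter (0.40, adjusted p = 0.053), and the genotypes overlapped, at 13.4, 13.9, 11.7 and 13.4 in Brg1 fl/+ and 13.3, 11.9, 14.4 and 13.5 in Brg1 fl/fl.

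Mxd4, a repressor with MAX like its relatives, had its E-box almost under the summit and showed no call at its promoter (chr5:34187620-34188232). Summit fragments were 97, 64, 33 and 59 in Brg1 fl/+ and 58, 28, 51 and 63 in Brg1 fl/fl. The difference relative to the median shared region was −0.10 (95% confidence interval from −0.36 to 0.17; adjusted p = 0.68). The Mxi1 promoter held 62, 37, 12 and 33 fragments in Brg1 fl/+ and 41, 20, 34 and 28 in Brg1 fl/fl, and its difference of 0.14 was not called either (95% confidence interval from −0.21 to 0.49; adjusted p = 0.64). At both genes the groups overlapped.

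Mnt, which encodes a MAX partner present in most cells, resting or cycling, carried 3 peaks in all 8 libraries, more than any other network gene. The promoter region (chr11:74829968-74831059) held 96, 57, 23 and 53 fragments in Brg1 fl/+ and 73, 31, 64 and 55 in Brg1 fl/fl, with a difference of 0.26 that was not called (95% confidence interval from −0.01 to 0.53; adjusted p = 0.20). Another region lay in the first intron, 1320 bp from the start (chr11:74831930-74832470), and 1 more in a later intron, 7606 bp from the start of the gene (chr11:74837723-74838757). The latter held 79, 39, 24 and 37 fragments in Brg1 fl/+ and 47, 23, 48 and 56 in Brg1 fl/fl, and was not called (0.22, 95% confidence interval from −0.07 to 0.52; adjusted p = 0.34).

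The region in the first intron of Mnt differed between the genotypes. Its summit fragments were 99, 66, 30 and 41 in Brg1 fl/+ and 75, 46, 85 and 82 in Brg1 fl/fl. Relative to the median shared region the log2 values were 0.34, 0.39, 0.37 and 0.18 in Brg1 fl/+ and 0.66, 1.03, 1.00 and 0.95 in Brg1 fl/fl, and the groups did not overlap. The difference was 0.59 (SE 0.12, 1.5-fold, limma, adjusted p = 0.0012). It remained called with each library left out (adjusted p from 0.00086 to 0.0076), with libraries averaged in pairs (0.0031) and with those alike averaged (0.018), and was not called on the deposited fold (0.50, adjusted p = 0.060). Such a call was common among shared regions of its kind: of 347 away from promoters, 41.2% were called higher in Brg1 fl/fl and 3.46% lower, with a median difference of 0.35. These 347 are only the 5.56% of 6240 regions away from promoters with a peak in all 8 libraries. Regions without a peak in some library are left out, and 63.3% of the 6240 were in fewer Brg1 fl/fl than control libraries. On the deposited fold 3.31% of all shared regions were called higher and 2.16% lower.

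Mga, the largest protein of the network, with a further DNA-binding domain of the T-box type, had a promoter peak in all 8 libraries. Its summit fragments were 56, 31, 15 and 22 in Brg1 fl/+ and 29, 21, 32 and 20 in Brg1 fl/fl. The Brg1 fl/fl libraries ran from −1.03 to −0.06 relative to the median shared region and spanned all 4 controls, which lay between −0.69 and −0.47, and the difference of 0.06 was not called (95% confidence interval from −0.31 to 0.44; adjusted p = 0.86).

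Mlx, the partner of the parallel network, had a promoter peak in 3 of 4 Brg1 fl/+ and 2 of 4 Brg1 fl/fl libraries. Its summit held 29, 16 and 15 fragments in Brg1 fl/+ replicates 1, 2 and 4 and 18 and 12 fragments in Brg1 fl/fl replicates 1 and 3. The deposited fold was 6.34, 5.97 and 6.09 in the controls and 4.62 and 4.34 in the mutants. These values did not overlap, but they come from only 3 control and 2 mutant libraries, and the libraries without a peak give no value. The share of all promoter regions that separate in this way is not given here. No difference in detection was found (Fisher's exact test, two-sided p = 1), in a test that no region passed after adjustment. Over all promoter regions, 37.4% were listed in fewer libraries of the mutants than of the controls, and 11.3% in more.

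**Figure D3:**
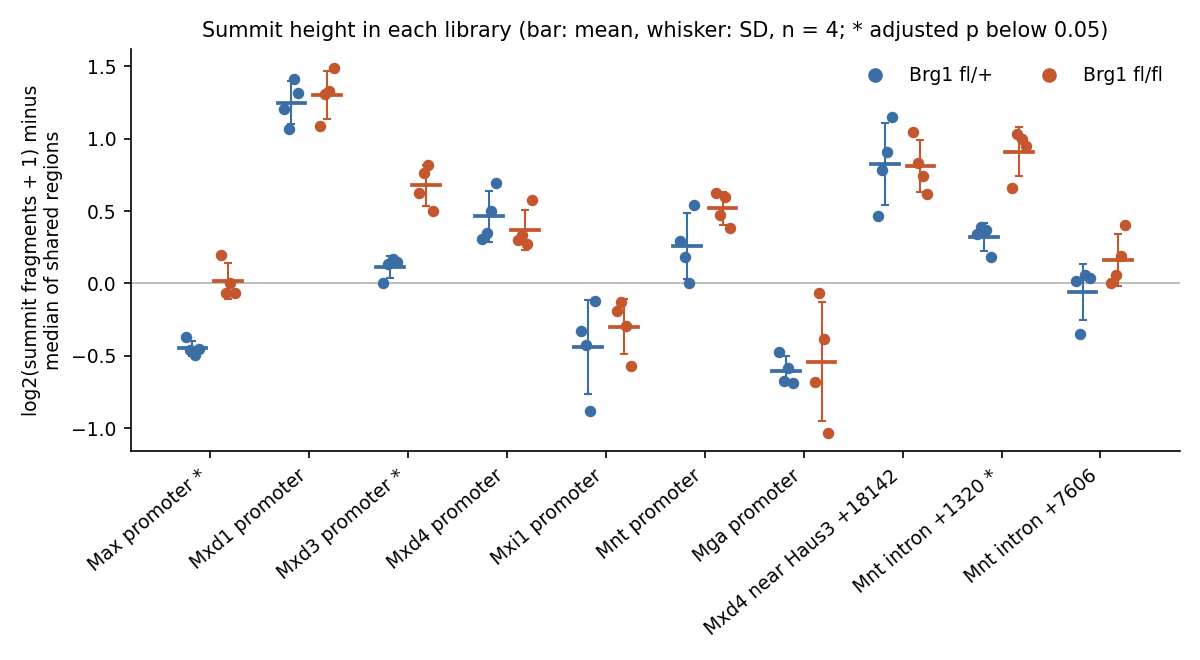
Summit height, as log2(fragments + 1) minus the median of the shared regions, in each library for the 10 regions of network genes found in all 8 libraries, with Brg1 fl/+ in blue and Brg1 fl/fl in orange; bars give the mean and whiskers the SD (n = 4), numbers after a name give the distance from the start of the gene in bp, and an asterisk marks an adjusted p below 0.05 by limma. The genotypes separate at the Max promoter, the Mxd3 promoter and the first intron of Mnt, and overlap at the other 7.

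In all, 10 regions of network genes could be compared for summit height, the promoters of 7 genes and 3 other regions. 3 of the 10 were called higher in Brg1 fl/fl relative to the median shared region by limma and none lower, the same 3 that had an unadjusted p below 0.05 (27.4% of all shared regions had one in either direction), beside 9.47% higher and 3.55% lower among the 4593 shared regions. At these 3 all Brg1 fl/fl libraries lay above all controls, as they did at 11.4% of shared regions, and at 4.72% they lay below. The median difference was 0.14 over the 7 promoters and 0.18 over the 10 regions, against 0.06 over all shared regions. By rank among the shared regions (0% the highest summit), the Max promoter moved from 72.4 ± 2.07% in Brg1 fl/+ to 49.7 ± 6.80% in Brg1 fl/fl, the Mxd3 promoter from 44.4 ± 3.71% to 19.6 ± 5.55% and the first intron of Mnt from 32.7 ± 5.40% to 12.5 ± 5.01% (mean ± SD, n = 4 each). Each gave the smallest p of the exact permutation test, 0.0286, as 14.5% of shared regions did, with an adjusted p of 0.20, and after adjustment 0.0% of the shared regions passed.

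**Figure D4:**
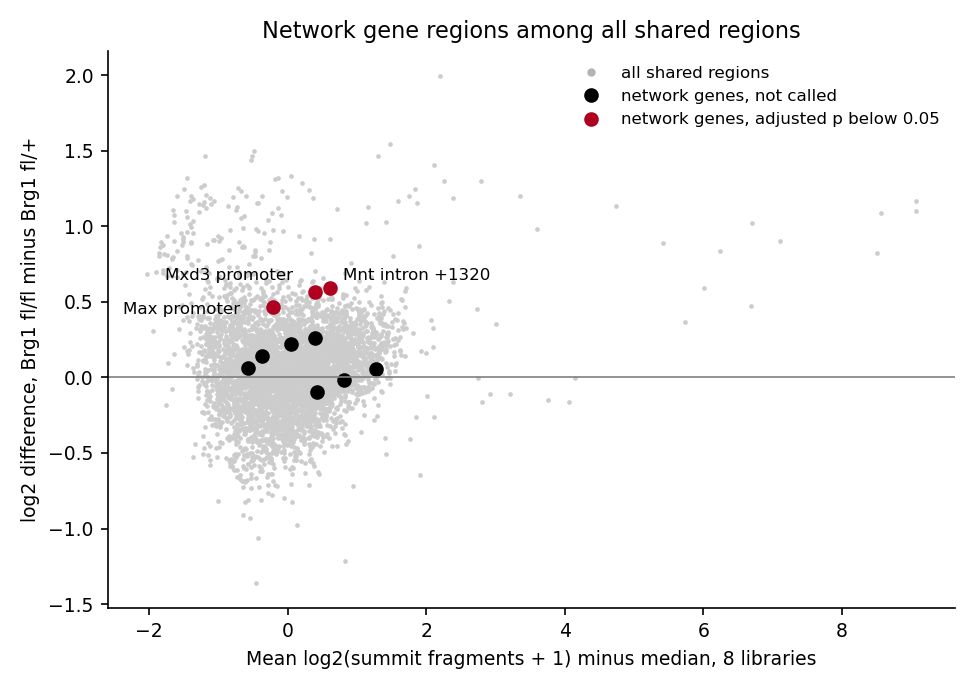
Log2 difference in summit height (Brg1 fl/fl minus Brg1 fl/+, relative to the median shared region) against the mean height over 8 libraries, with the 4593 shared regions in grey and the 10 regions of network genes as large points, those with an adjusted p below 0.05 in red. The 3 red points lie at 0.46, 0.56 and 0.59 within the upper part of the cloud, and the black points lie between −0.10 and 0.26.

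The direction of these differences depended on what a library was measured against. Relative to the background of the library, the log2 difference of the median shared region was −0.81, and all 10 regions of network genes were lower as well. The Max promoter then differed by −0.41 (adjusted p = 0.053), the Mxd3 promoter by −0.30 (0.082) and the first intron of Mnt by −0.28 (0.099), none of which was called, while the other 7 were called lower, from −0.61 at the Mnt promoter to −0.96 at the Mxd4 promoter. This scaling moved the difference of every shared region by the same amount. The distances from the median shared region were therefore set by the first comparison and are no second test of it. They were 0.40 at the Max promoter, 0.50 at the Mxd3 promoter and 0.53 in the first intron of Mnt, each above the median. The signal over background moved with the genotype, and its part in the results was not tested.

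**Figure D5:**
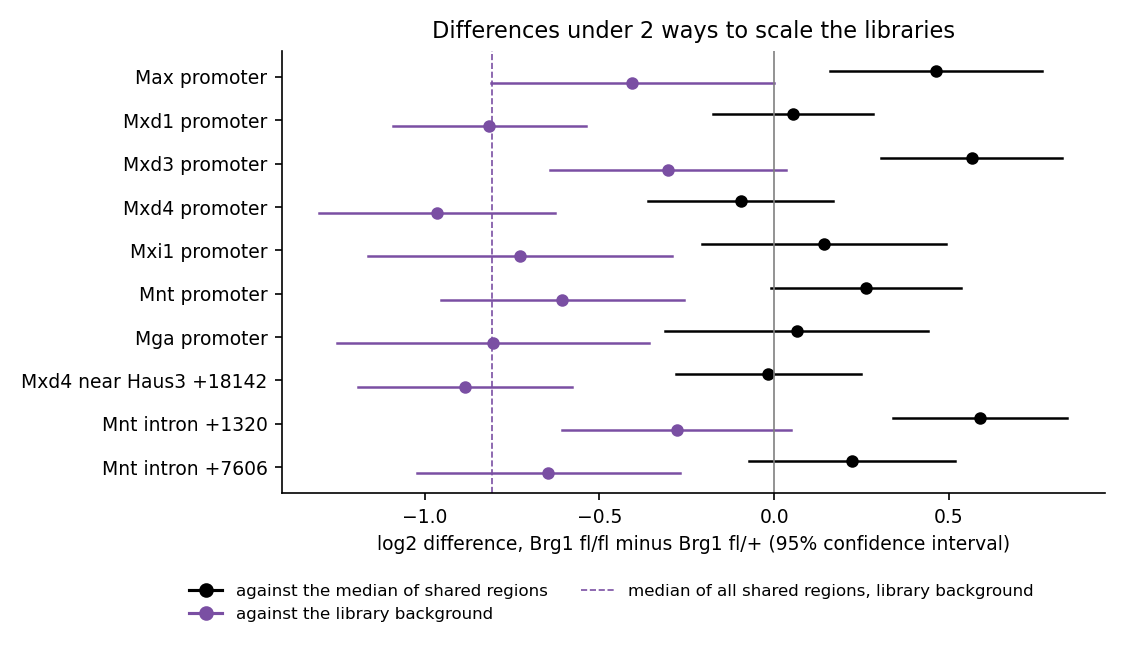
Log2 difference in summit height (Brg1 fl/fl minus Brg1 fl/+) with its 95% confidence interval for the 10 regions of network genes, in black relative to the median shared region and in purple relative to the background of the library; the dashed line marks the median of all shared regions on the latter scale, −0.81. All purple points lie below 0, and those of the Max promoter, the Mxd3 promoter and the first intron of Mnt lie to the right of the dashed line. The change of scale moves all regions by the same amount, so their order is the same in black and purple.

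The regions other than promoters were most often found in the longest lists. Of the 8 other regions, 8, 8, 5 and 6 were found in Brg1 fl/+ replicates 1 to 4 and 6, 3, 7 and 7 in Brg1 fl/fl, a mean of 6.75 ± 1.5 and 5.75 ± 1.89 (SD, n = 4), and the groups overlapped. The intronic region of Mxi1 (chr19:53314144-53314398), 3794 bp from the start of the gene, was found in Brg1 fl/+ replicates 1 and 2, with 34 and 28 fragments, and in no other library. These are the longest lists, with 14614 and 11283 peaks, and 13.2% of regions away from promoters were found in the same 2 libraries and no others (Fisher's exact test, p = 0.429, adjusted p = 1). The Haus3 and Poln promoter region near Mxd4 was in all 8 libraries and was not called (−0.02, 95% confidence interval from −0.28 to 0.25; adjusted p = 0.95). The region of Prelid1 and Rab24 near Mxd3 was in 3 libraries of each genotype, that of Coasy near Mlx in 3 of each, that of Psmc3ip in 4 and 3, and that of Mapkbp1 near Mga in 3 and 2.

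Other genes of the pathway were taken from lists of family members, cofactors, proteins that control MYC turnover, and MYC targets. Of 4 relatives, Mlxip, a partner of MLX, had a promoter peak in all 8 libraries, Mycl in 1 control, and Mycn and Mlxipl in none. Among 14 cofactor genes 13 had a promoter peak in some library and 11 in all 8. The exceptions by rule were Ruvbl1 and Sin3b. Ruvbl1, which encodes a helicase of the MYC-binding TIP60 complex, had none. Sin3b, which encodes the scaffold through which MXD proteins repress, had a peak in 4 Brg1 fl/+ and 1 Brg1 fl/fl libraries. No region passed Fisher's exact test of detection after adjustment, and 37.4% of all promoter regions were listed in fewer mutant than control libraries. Of the cofactor promoters found in all 8 libraries limma called 0 of 11 in either direction, with 1 at an unadjusted p below 0.05 (24.8% of all shared promoter regions), and 0 on the deposited fold or with quantile normalization. All 20 target genes had a promoter peak in some library and 14 in all 8, and limma called 0 of the 14, with 4 at an unadjusted p below 0.05, beside the same 24.8%, and 1 on the deposited fold and 1 with quantile normalization.

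Of 8 turnover genes, 7 had a promoter peak in all 8 libraries, and 2 of the 7 were called higher in Brg1 fl/fl relative to the median shared region, beside 6.88% of all shared promoter regions. Pim1, which encodes a kinase that stabilizes MYC, differed by 0.37 (SE 0.12, limma, adjusted p = 0.031), and Ppp2r5a, which encodes a PP2A subunit that promotes MYC loss, by 0.39 (SE 0.12, adjusted p = 0.022). Neither was called with libraries averaged in pairs (0.069 and 0.058), with those alike within sampling noise averaged (0.21 and 0.11) or with quantile normalization (0.54 and 0.16). On the deposited fold Pim1 differed by 0.14 (adjusted p = 0.46) and Ppp2r5a by 0.39 (adjusted p = 0.042). Relative to the library background limma called both lower, Pim1 at −0.50 (adjusted p = 0.00052) and Ppp2r5a at −0.48 (0.0036). On that scale 4232 of the 4593 shared regions were called lower. Of the 3 B cell marker promoters found in all 8 libraries, limma called that of Cd74 lower in Brg1 fl/fl (−0.43, SE 0.15, adjusted p = 0.048), beside 3.56% of all shared promoter regions. The call was lost with libraries averaged in pairs (0.082), with those alike averaged (0.15) and with quantile normalization (0.068). Relative to the library background Cd74 differed by −1.30 (limma, adjusted p = 1.0e-07). On the deposited fold Cd74 differed by −0.14 (adjusted p = 0.62). The median difference was 0.20 over the cofactors, 0.27 over the turnover genes and 0.12 over the targets, against 0.05 over all shared promoter regions.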

How the data were processed

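ATAC-seq was analysed in 8 libraries, 4 Brg1 fl/+ and 4 Brg1 fl/fl, grouped by sample label. Per the processing notes and methods, the authors used Bowtie2 (mm10) for alignment and MACS2 for the peaks, 1 list per library; versions, options and the handling of duplicates or of the transposase shift are not given in the sources used here. The deposited lists give each peak's fold (a ratio to the local background), its −log10 p and −log10 q, a score and the position of its summit. No read counts, coverage tables or DESeq2 output of the authors were used, and 8 RNA-seq libraries were not analysed here.

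Fragments at each summit were solved from the deposited fold and −log10 p within 0.002 (99.9% of 72493 peaks). They set the precision, and the lowest summit listed held 5 to 8 fragments. Overlapping peaks were joined (at least 1 bp), and the best peak by q was kept per library. Log2(fragments + 1), less the median of each library over the 4593 shared regions, was compared with limma 3.58.1 in R 4.3.3 (variance trend, no block, Benjamini-Hochberg over all shared regions, threshold 0.05). Detection was compared with Fisher's exact test and ranks with an exact permutation test over 70 assignments, both two-sided and adjusted over all regions. Motif letters were searched on both strands within 100 bp of the median summit. GENCODE M21 gave the genes, the other tools were matplotlib 3.10.9, pandas 2.3.3, pysam 0.24.0, scipy 1.17.1, numpy 2.4.6 and Python 3.11.15, and the steps were tested on simulated data.

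The network genes and all lists were chosen with earlier results of these data known. All 9 network genes are named with every region; of the other lists, genes called, with a peak in all 4 libraries of 1 genotype and at most 1 of the other, or with no peak in any library, together with Smarca4; marker genes are named as a check, of which 1 is not reported here. Alternatives were the deposited fold, other normalizations, pseudocounts and filters, stricter q, equal list lengths, each library left out, the replicate number as a block and libraries averaged.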

Additional observations from a re-analysis of the deposited data

Results flagged for a closer look

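In 28 groups of 4 libraries, made of the 10 regions of network genes found in all 8 libraries and of 4 measures per library, 1 library stood far from the other 3. At the region in the later intron of Mnt, 7606 bp from the start of the gene, Brg1 fl/+ replicate 2 had a log2 summit height of −0.35 relative to the median shared region, while the other 3 controls lay between 0.02 and 0.06. Chance gives about 1 such case in 20 groups.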

How the results depend on the processing

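The calls for the network genes rested on the measure and the scaling. Scaled by the library background, an alternative chosen after seeing the data like the equal list lengths and the averaging of libraries alike within sampling noise, 0 of the 10 regions were called higher and 7 lower, and the differences were −0.41 at the Max promoter, −0.81 at Mxd1, −0.30 at Mxd3, −0.73 at Mxi1, −0.61 at the Mnt promoter, −0.80 at Mga, −0.28 in the first intron of Mnt and −0.65 in its later intron; over all shared regions 21 were called higher and 4232 lower, which follows from the lower signal over background in Brg1 fl/fl. On the deposited fold 0 of the 10 were called higher, with 152 higher and 99 lower over all shared regions, and the Mxd4 promoter turned to 0.063 and the Haus3 region to 0.081; the cause was not tested. Over all shared regions 435 were called higher and 163 lower, against 207 higher with quantile normalization, 254 and 100 where −log10 q had to reach 10 (3028 regions), 289 higher with equal list lengths, 139 and 25 with libraries alike averaged, 107 lower with libraries averaged in pairs and 80 lower in regions of at least 6 libraries. Uncalled differences that changed sign were −0.13 at Mxd1 with quantile normalization and 0.040 at the Haus3 region in regions of at least 6 libraries.

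With each library left out in turn, 2 to 3 regions of network genes were called higher (0 lower), 286 to 469 of all shared regions higher and 90 to 140 lower. Without Brg1 fl/fl replicate 1, 286 were called higher and 90 lower, and the lower calls also fell to 95 without Brg1 fl/+ replicate 2, to 102 without Brg1 fl/+ replicate 4 and to 105 without Brg1 fl/fl replicate 3. The differences ran from −0.0087 to 0.13 at the Mxd1 promoter, from −0.0063 to 0.25 at Mxi1, from −0.094 to 0.23 at Mga and from −0.14 to 0.091 at the Haus3 region. Other regions listed in a smaller share of Brg1 fl/fl libraries numbered 2 to 5 (3 with all libraries), and in a larger share 0 to 2.

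When −log10 q had to reach 5, 0 promoters of network genes were in a larger share of Brg1 fl/fl libraries, and when it had to reach 10 there were 4, with 4 promoters left in every library; with equal list lengths 1 other region was. Ranked by fold, the rank differences were −5.19 points at Mxd1, −6.77 at the Mxd4 promoter, 3.40 at Mxi1 and −3.52 at the Haus3 region, each of the other sign. Of the turnover genes 1 was called higher on the deposited fold and 0 with quantile normalization, and 1 target was called lower under each. Within 250 bp of the summit, GGGCGG was at 8 network promoters, CCAAT at 5, the ETS letters at 1, the CRE at 1 and the E2F letters at 2, and within 50 bp CCAAT was at 1.

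Replicate numbers did not pair the libraries: deviations from the group mean correlated from −0.065 to −0.0049 between libraries of the same number. With the replicate number as a block 428 shared regions were called higher and 162 lower, with 3 regions of network genes higher (adjusted p = 0.043 at Max, 0.0032 at Mxd3 and 0.0013 in the first intron of Mnt). The lowest summit of a list held 5 to 8 fragments, and a list without a peak, as at Myc and Mlx, does not show at this depth that the promoter was closed.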
